A study of Mus musculus with 6 samples.

Results

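The genes described here are those of the epithelial sodium channel and of the aldosterone response that controls it. They were taken as the probe sets, groups of probes read together on the array, that name exactly 1 gene and carry 1 of 7 gene symbols: Scnn1a, Scnn1b, Scnn1g, Nr3c2, Sgk1, Nedd4l and Fxyd4. Probe sets were found for 6 of the 7 genes, 7 probe sets in all, among 12393 genes named on the array. Nr3c2, the mineralocorticoid receptor, had no probe set naming it alone and is not analysed here. The samples were 3 duodenal tumors and 3 cecal tumors, each from a different mouse with the Apc1638N allele of the Apc tumor suppressor gene and deficient in Rb1, the retinoblastoma gene. Apc1638N and the Rb1 deficiency were thus shared by both groups. The sources used here give neither the age of the mice nor the cells in which Rb1 was lost. The duodenal group may hold tissue of tumors from the pylorus, where the stomach meets the duodenum, per the labels. Tumors of one site were compared with tumors of the other, and no normal tissue was analysed here.

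The epithelial sodium channel carries sodium from the lumen into surface cells of the distal colon, the kidney's collecting duct and the airway. Its alpha, beta and gamma subunits, encoded by Scnn1a, Scnn1b and Scnn1g, assemble into 1 channel. Aldosterone enters the cell and binds the mineralocorticoid receptor, a transcription factor, which raises transcription of the kinase gene Sgk1. The SGK1 kinase phosphorylates the ubiquitin ligase encoded by Nedd4l, and the ligase then removes fewer channels from the membrane. Fxyd4 encodes CHIF, a small regulator of the sodium pump that is known from distal colon and collecting duct. In rodent distal colon the beta and gamma subunits are the ones whose transcripts respond most to aldosterone.

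None of the 3 members bright enough to be tested differed between tumors of the 2 sites at an adjusted p below 0.05 (limma, Benjamini-Hochberg over 8129 genes). At an unadjusted p below 0.05 there was 1, Sgk1. Of all tested genes, 10.9% passed the adjusted threshold, 5.87% with higher and 5.08% with lower values in cecal tumors, and 24.9% had an unadjusted p below it. Of all tested probe sets, 9.3% passed. Scnn1b, Scnn1g and Fxyd4 were dim in every tumor, below the 40th percentile of the array's intensities, a level that stands in here for detection calls. That percentile was 92.4 to 100.6 on the 6 arrays. Of 47 tested genes of the pathway around the members, 13 passed, or 27.7% against 10.9% of all tested genes. They were chosen with earlier results of these data known, so that share is no finding about them. Among those that passed was Hsd11b2, the enzyme that keeps glucocorticoids off the mineralocorticoid receptor. Hsd11b2 was 8.12-fold higher in cecal tumors on the scale of intensity + 16. Since the samples were pieces of tumor, fewer cells of a type and less RNA per cell cannot be told apart.

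Marker lists were used to describe the tumors. They do not test the site labels, since they were chosen with earlier results of these data known. Some of their genes, such as Gkn1 and Car1, were bright enough to be tested only through the site where they were high. In the gastric and pyloric mucous list 7 of 7 tested genes were lower in cecal tumors, and in the surface colonocyte list 6 of 7 were higher. Among all tested genes 5.08% were lower and 5.87% higher. In the small intestinal enterocyte list 2 of 4 tested genes were lower in cecal tumors. Duodenal tumor 2 stood apart there, with Fabp1 at 683.8 where duodenal tumors 1 and 3 had 4236.3 and 4630.3, and Apoa1 no higher than 29.6 on any of its 4 probe sets where the others had 610 or more. Summed over the list, the surface colonocyte intensities were 4173 to 5320 in duodenal and 24940 to 37337 in cecal tumors. Most of each duodenal sum came from Krt20 alone, at 3263.6 to 4540.3 in duodenal and 4636.3 to 8338.3 in cecal tumors. The defining colonocyte marker Car1 stayed between 10.1 and 32.4 in duodenal tumors, below the 40th percentile. For pan-epithelial genes the sums were 53542 to 62015 and 63678 to 65294, and for fibroblast and matrix genes 11462 to 14730 and 16006 to 20331. The tumors numbered 2 at both sites had bright Xist and dim Y-linked genes, so that each site had 2 male mice and 1 female mouse. The array medians lay between 164.6 and 181.8, and with 3 arrays a group the precision of each value is limited.

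Scnn1a, the alpha subunit without which the channel carries little current, was the only subunit above the 40th percentile, and it was so on all 6 arrays. Its intensity was 430, 191.4 and 294.9 in duodenal tumors 1, 2 and 3, and 245.7, 231.3 and 241.1 in cecal tumors 1, 2 and 3. The cecal values lay close together, inside the spread of the duodenal ones, so the groups overlapped. The means were 305.4 ± 119.6 (SD, n = 3) in duodenal and 239.4 ± 7.4 (SD, n = 3) in cecal tumors. The log2 fold, cecal minus duodenal and taken on intensity + 16, was -0.26 ± 0.26 (SE; limma adjusted p = 0.581). Its 95% interval, from -0.85 to 0.33, spans no change, a fall to 0.553-fold and a rise to 1.25-fold. Without duodenal tumor 1, the brightest, the log2 fold was 0.0077, and without duodenal tumor 2, the dimmest, it was -0.54 (limma adjusted p = 0.144).

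Scnn1b, the beta subunit, gave 78.2, 50.9 and 62.4 in duodenal tumors 1, 2 and 3, and 59.5, 62 and 47.4 in the cecal tumors. The groups overlapped and all 6 values were below the array's 40th percentile, so no fold is given. Scnn1g, the gamma subunit, gave 86.2, 59.8 and 31.8 in the duodenal group, against 4.7, 9.6 and 15.3 in the cecal group. Each duodenal tumor was above each cecal one, yet all 6 values were again below the 40th percentile, and a fold between such values has no firm size. With no filter on dim probe sets, Scnn1g passed (limma adjusted p = 0.0296), and Scnn1b did not (adjusted p = 0.793). Of the 4264 genes too dim to be tested, 16.4% had groups that did not overlap, and 8.49% did so with lower values in cecal tumors, as Scnn1g did. Low signal of these 2 probe sets does not show that the subunits were absent.

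**Figure D1:**
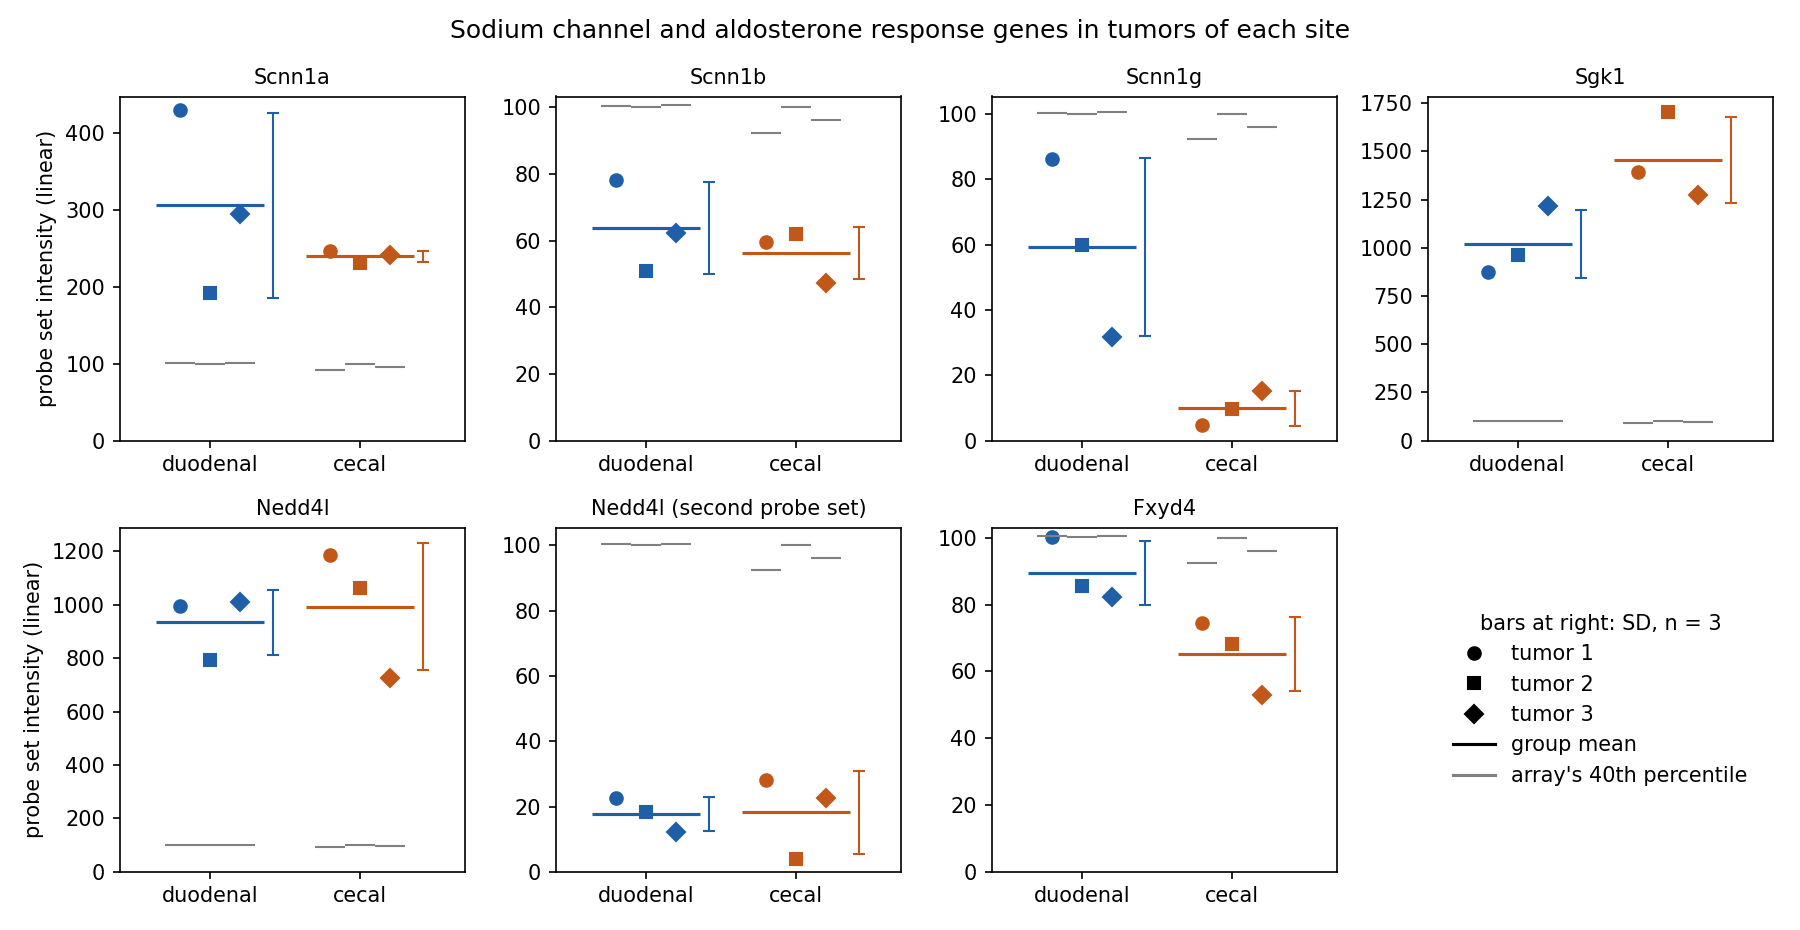
Intensity of each member's probe sets (linear axes from 0) in duodenal and cecal tumors; points are tumors, lines group means, bars at the right the SD (n = 3), and grey marks the 40th percentile of that tumor's array. Scnn1b, Scnn1g, Fxyd4 and the second Nedd4l probe set lie below the grey marks on all 6 arrays, while Sgk1 is higher in each cecal than in each duodenal tumor.

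Sgk1, the aldosterone-induced kinase, came nearest to a difference among the 3 members bright enough to be tested. Its intensity was 875.3, 965.1 and 1217.9 in duodenal tumors 1, 2 and 3, and 1391.7, 1704 and 1274.8 in cecal tumors 1, 2 and 3. Every cecal tumor was above every duodenal tumor, with a narrow gap between cecal tumor 3 and duodenal tumor 3. The means were 1019 ± 178 (SD, n = 3) and 1457 ± 222 (SD, n = 3), and the log2 fold was 0.51 ± 0.17 (SE; limma adjusted p = 0.0959). Groups that did not overlap were seen for 31.2% of all tested genes, for 14.4% with the cecal values higher, as in Sgk1, and for 16.8% with them lower. With array weights, which give less weight to arrays that deviate more, Sgk1 passed (log2 fold 0.67, limma adjusted p = 0.0232). With the 4 arrays of male mice alone the log2 fold was 0.36 (adjusted p = 0.423). Sgk1 is also known as a gene induced by serum and stress. Of 7 tested immediate early genes, 2 rose in cecal tumors and 0 fell, where 5.87% of all tested genes rose and 5.08% fell. The summed list ran from 8120 to 9370 in duodenal and from 10010 to 12385 in cecal tumors. The part of these genes in the Sgk1 values was not tested.

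Nedd4l, the ubiquitin ligase that withdraws the channel from the membrane, gave 994.5, 794.4 and 1011.3 in the duodenal group, against 1186.6, 1063.7 and 726.1 in the cecal group 1, 2 and 3. Cecal tumors held both the highest and the lowest value, so the groups overlapped fully. The log2 fold was 0.07 ± 0.20 (SE; limma adjusted p = 0.872), with a 95% interval from -0.39 to 0.52. The sign turned without duodenal tumor 2 (-0.045), without cecal tumor 1 (-0.077) and with male mice alone (-0.11). A second Nedd4l probe set ran from 4 to 28.3 over the 6 arrays, below the 40th percentile throughout.

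Fxyd4, the sodium pump regulator CHIF, gave 100.2, 85.7 and 82.2 in the duodenal group, against 74.6, 68.2 and 53 in the cecal group 1, 2 and 3. The cecal values were the lower ones without overlap, as for 8.49% of the 4264 genes too dim to be tested. All 6 values lay below the 40th percentile of their array, duodenal tumor 1 just below its level of 100.4. With no filter on dim probe sets the difference did not pass (limma adjusted p = 0.356).

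The genes whose values followed Scnn1a most closely over the 6 arrays were Sod1, which encodes a superoxide dismutase (Pearson r = 0.986), Gmppb, an enzyme that makes GDP-mannose (r = 0.980), and the transcription factor gene Mef2d (r = 0.969). They are a description of 6 arrays, picked as the highest of 8129 genes, and carry no test. Sod1 had 3121.5 in duodenal tumor 1 and 1441.5 in duodenal tumor 2, so that it shared with Scnn1a its highest and lowest tumor. None of these 3 genes differed between the sites (limma adjusted p = 0.424 to 0.867).

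The further genes of the pathway were followed in 5 lists that hold 62 genes, and 47 could be tested. In cecal tumors 7 of the 47 rose and 6 fell, or 27.7% against 10.9% of all tested genes. The lists were put together with earlier results of these data known, so the higher share is no finding about them. The count was 16 when replicate numbers entered the fit as a block. It was 8 without duodenal tumor 3, 7 without cecal tumor 1, 6 without cecal tumor 2 and 6 with male mice alone.

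Corticosteroid access and response was the list with the most rises. Of its 11 tested genes, 5 rose in cecal tumors and 0 fell, where 5.87% of all tested genes rose and 5.08% fell. This list too was put together with earlier results of these data known. The median log2 fold of the list was 0.54, beside -0.05 over all tested genes. Hsd11b2 converts cortisol and corticosterone to inactive forms and so leaves the mineralocorticoid receptor to aldosterone. It had 432, 454.2 and 355.7 in the duodenal group, against 3404, 3356 and 3615.2 in the cecal group 1, 2 and 3. Values within a site lay close together, and the gap between the sites was far wider than either spread. The means were 414.0 ± 51.7 (SD, n = 3) and 3458 ± 138 (SD, n = 3), and the log2 fold was 3.02 ± 0.13 (SE; limma adjusted p = 7.97e-06). Hsd11b1, which works in the opposite sense and regenerates active glucocorticoid, rose from 155.2 ± 24.5 to 374.8 ± 28.2 (log2 fold 1.20 ± 0.16 SE, limma adjusted p = 0.00265). Both enzymes that set local corticosteroid levels were thus higher in cecal tumors.

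Fkbp5, a receptor co-chaperone that glucocorticoids induce, had 219.9, 243.2 and 237.1 in the duodenal group, against 794.2, 954 and 849.3 in the cecal group. All cecal tumors were well above all duodenal ones (log2 fold 1.82 ± 0.13 SE, limma adjusted p = 0.000166), and a second probe set gave 1.76 (adjusted p = 0.00197). Ndrg2, a gene that aldosterone induces in kidney, rose from 218.3 ± 60.6 to 509.2 ± 40.3 (log2 fold 1.19 ± 0.19 SE, limma adjusted p = 0.00654). With male mice alone the Ndrg2 call was lost (adjusted p = 0.0697). Dusp1, a phosphatase gene induced by glucocorticoids and by stress, rose by 0.90 ± 0.20 (SE) on the log2 scale (limma adjusted p = 0.0226). Dusp1 no longer passed when duodenal tumor 2 or 3 was left out (adjusted p = 0.0612 or 0.0779), when cecal tumor 1 or 2 was (0.0847 or 0.0777), or with male mice alone (0.141).

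Other genes of the same list gave no call. The clock gene Per1 had 112.1, 100.1 and 103.3 in the duodenal group, against 125.4, 253.2 and 125.8 in the cecal group. Each cecal tumor was above each duodenal one, as for 14.4% of all tested genes, with a narrow gap but for cecal tumor 2. The log2 fold of Per1 was 0.54 (limma adjusted p = 0.262). Fkbp4, a co-chaperone of steroid receptors, had one of -0.42 (adjusted p = 0.29). Tsc22d3, the gene of the glucocorticoid-induced leucine zipper, and Nr3c1, the glucocorticoid receptor, were named after their values were seen, as were Klf9 and Edn1, which corticosteroids are also known to induce. Klf9 had a log2 fold of 0.08 (limma adjusted p = 0.793) and Edn1 one of -0.30 (adjusted p = 0.466). The brightest Tsc22d3 probe set overlapped between the sites (log2 fold 0.24 ± 0.19 SE, limma adjusted p = 0.497). Another gave 0.32 with overlap, and the dimmest 0.42 with each cecal tumor above each duodenal one, and neither passed among all probe sets (adjusted p = 0.436 and 0.258). For Nr3c1 the brightest probe set gave 0.24 (adjusted p = 0.505). Its other probe sets gave 0.58 and 0.51, each with cecal values above duodenal ones without overlap, and neither passed among all probe sets (adjusted p = 0.0938 and 0.0825). The surface colonocyte list, with a median log2 fold of 3.91 and the sums given above, moved with the rises of this list. The fibroblast, epithelial and immediate early lists did so by less, with medians of 0.38, 0.21 and 0.35. The part of these cell types and of handling in the rises was not tested.

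**Figure D2:**
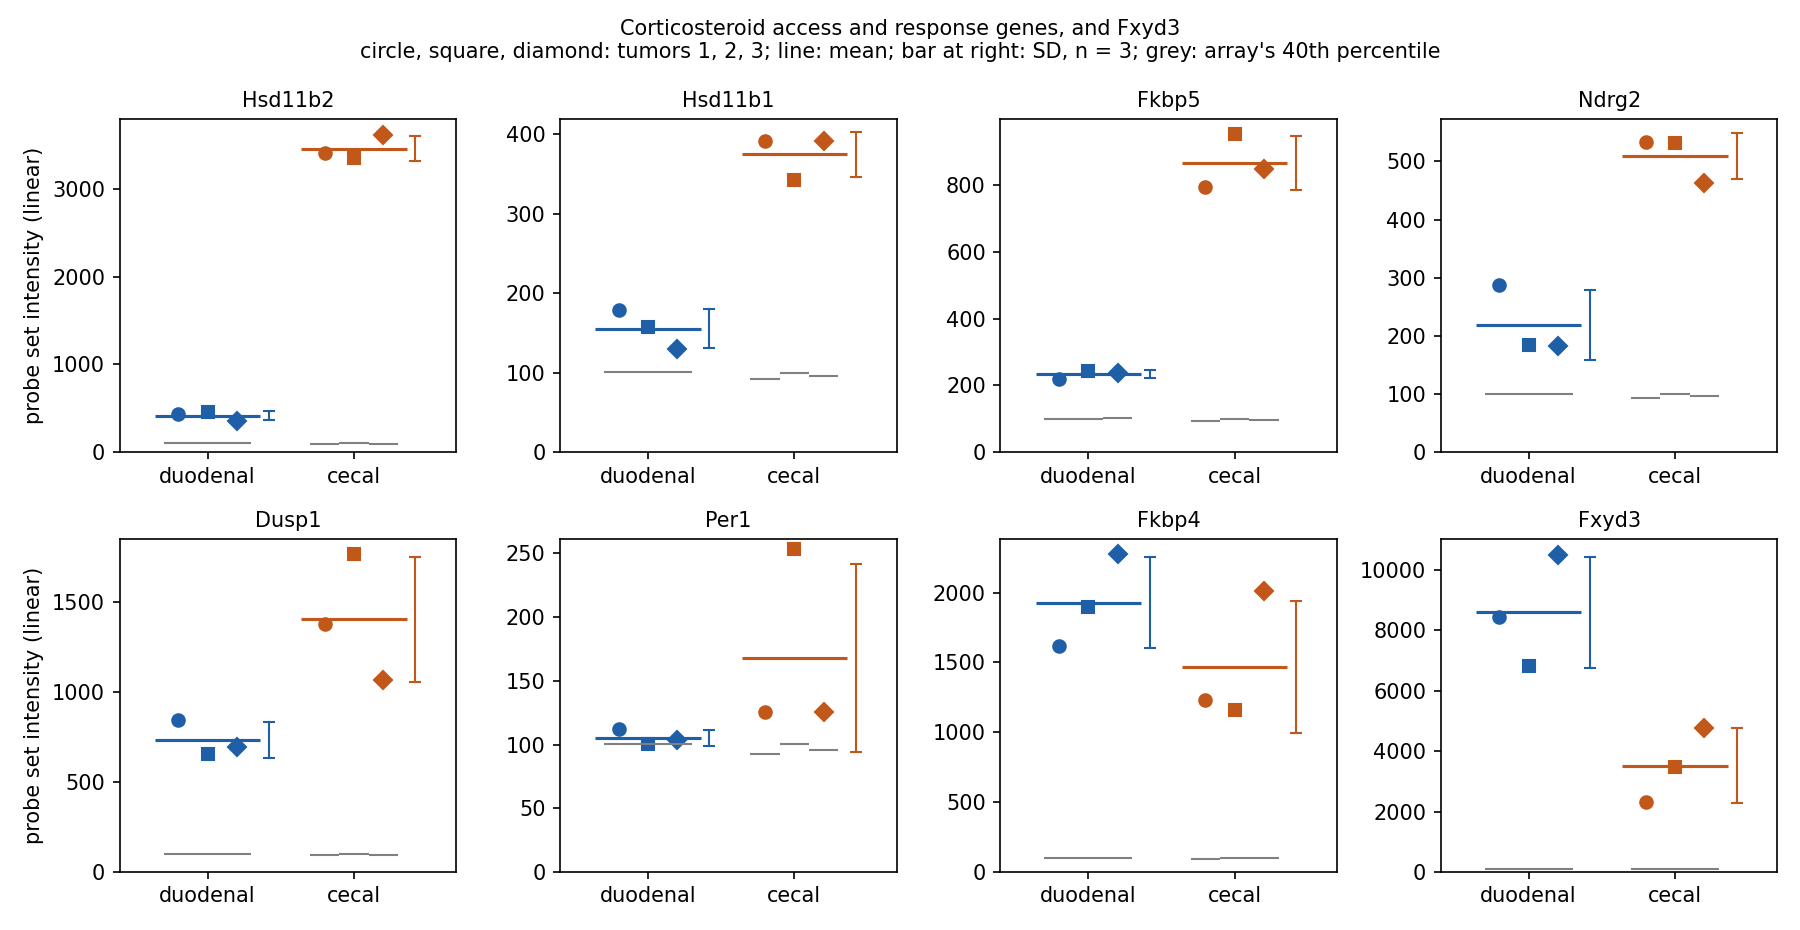
Intensity (linear axes from 0) of named corticosteroid access and response genes and of Fxyd3 in duodenal and cecal tumors; points are tumors 1 to 3, lines means, bars at the right the SD (n = 3), grey marks the array's 40th percentile. Hsd11b2, Hsd11b1, Fkbp5, Ndrg2, Dusp1 and, by a narrow gap, Per1 are higher in each cecal tumor than in any duodenal tumor, Fxyd3 is lower, and Fkbp4 overlaps.

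Among proteases that cleave and so activate the channel, and their inhibitors, none of 8 tested genes passed (limma), and the median log2 fold was 0.06. An unadjusted p below 0.05 (limma) was seen for 2 of the 8 and for 24.9% of all tested genes. Of all tested genes, 10.9% passed. Prss8, the membrane protease prostasin that activates the channel, had 519.7, 321.8 and 624.1 in the duodenal group, against 275.8, 280.6 and 329 in the cecal group. Duodenal tumor 2 fell among the cecal values, and the log2 fold of -0.65 ± 0.23 (SE) did not pass (limma adjusted p = 0.122). Prss8 passed without that tumor (-0.92, adjusted p = 0.0161) and with array weights (-0.74, adjusted p = 0.0325). Spint1, an inhibitor of such proteases, was at 0.48 ± 0.16 (SE) on the log2 scale (limma adjusted p = 0.0989), and passed with the block (0.0409).

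Among kinases, ligases and adaptors of channel turnover, 1 of 14 tested genes fell and none rose, where 5.08% of all tested genes fell and 5.87% rose. The median log2 fold of the list was -0.0063. The gene that fell was Usp10, a deubiquitinating enzyme, which went from 1208 ± 79 to 809.8 ± 106.5 (log2 fold -0.57 ± 0.14 SE, limma adjusted p = 0.0329). Its call was lost without any single array but cecal tumor 3 (adjusted p = 0.0776 to 0.117) and with male mice alone (0.209). Stk39, a kinase of the WNK pathway of ion transport, had a log2 fold of -0.59 (adjusted p = 0.112). Ywhae, a 14-3-3 adaptor, had one of 0.30 (adjusted p = 0.108, or 0.0337 with array weights), but its other 3 probe sets lay between -0.02 and 0.03.

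In the sodium pump and FXYD list, 1 of 6 tested genes fell and none rose, where 5.08% of all tested genes fell and 5.87% rose. Fxyd3, a pump regulator of stomach and colon epithelium, had 8446.6, 6840 and 10506.4 in the duodenal group, against 2307.9, 3488.3 and 4782.4 in the cecal group 1, 2 and 3. The groups did not overlap, and the log2 fold was -1.32 ± 0.26 (SE; limma adjusted p = 0.0146). Leaving out duodenal tumor 3 (adjusted p = 0.0517) or cecal tumor 2 (0.0545) ended the call. Genes of the gastric and pyloric list moved with Fxyd3, at summed intensities of 53419 to 76981 in duodenal and 566.9 to 805.5 in cecal tumors, and their part was not tested. Fxyd6 had a log2 fold of -1.88 ± 0.56 (SE) and did not pass (limma adjusted p = 0.0705), with 598.7 in duodenal tumor 2 and at most 209.8 elsewhere. It passed with the replicate number as a block (adjusted p = 0.00207) and without duodenal tumor 1 (0.0421). Atp1b3, a beta subunit of the pump, had one of -0.31 (adjusted p = 0.146).

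Of 8 tested genes of other epithelial ion paths, 2 rose and 4 fell in cecal tumors, with a median log2 fold of -0.68. Among all tested genes 5.87% rose and 5.08% fell, and the median was -0.05. This list too was put together with earlier results of these data known, so its counts are no finding about it. The chloride-bicarbonate exchanger Slc26a3, which also stands on the surface colonocyte list, had 371.8, 43.6 and 366.4 in the duodenal group, against 3317.3, 1746.6 and 1374.4 in the cecal group. All cecal tumors were higher, duodenal tumor 2 was below the 40th percentile, and the log2 fold was 3.28 ± 0.69 (SE; limma adjusted p = 0.0189), a call lost without cecal tumor 1 (0.0945) or 2 (0.0618). Slc9a3r1, the scaffold protein NHERF1 of apical exchangers, rose by 0.60 ± 0.15 (SE; adjusted p = 0.0384). That call was lost without any single array but cecal tumor 3 (adjusted p = 0.0841 to 0.116), with no filter on dim probe sets (0.0527), with no intensity trend (0.06) and with male mice alone (0.182).

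The 4 genes of this list that fell are known from chloride secretion. The gastric and pyloric list (7 of 7 lower, median log2 fold -7.15) and the small intestinal enterocyte list (2 of 4 lower, median -1.81) were lower in the same tumors, and their part in these falls was not tested. Cftr, the apical chloride channel, fell from 1668 ± 590 to 668.7 ± 143.5 (log2 fold -1.26 ± 0.27 SE, limma adjusted p = 0.0202). Leaving out duodenal tumor 1 (adjusted p = 0.0573) or 3 (0.0712), or cecal tumor 1 (0.0916) or 2 (0.0852), ended the Cftr call. The basolateral potassium channel genes that passed the threshold all fell. Kcnq1 fell by 1.09 ± 0.19 (SE; adjusted p = 0.0098), Kcnn4 by 0.79 ± 0.13 (0.00785) and Kcne3, the regulatory partner of Kcnq1, by 0.97 ± 0.21 (0.0222). Kcne3 no longer passed without duodenal tumor 1 (0.0618) or 3 (0.0612) or cecal tumor 1 (0.0958) or 2 (0.0913). With male mice alone Kcne3 (0.0558), Kcnq1 (0.0568) and Kcnn4 (0.0585) all missed the threshold. Slc12a2, the cotransporter that loads chloride into the cell, overlapped between the sites (log2 fold -0.56 ± 0.26 SE, adjusted p = 0.22, or 0.0274 without cecal tumor 3). The potassium channel Kcnk5, at 1.13 ± 0.35 (SE) on the log2 scale, missed the threshold (limma adjusted p = 0.0772). It passed with the block (0.0302) and without duodenal tumor 1 (0.0216).

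**Figure D3:**
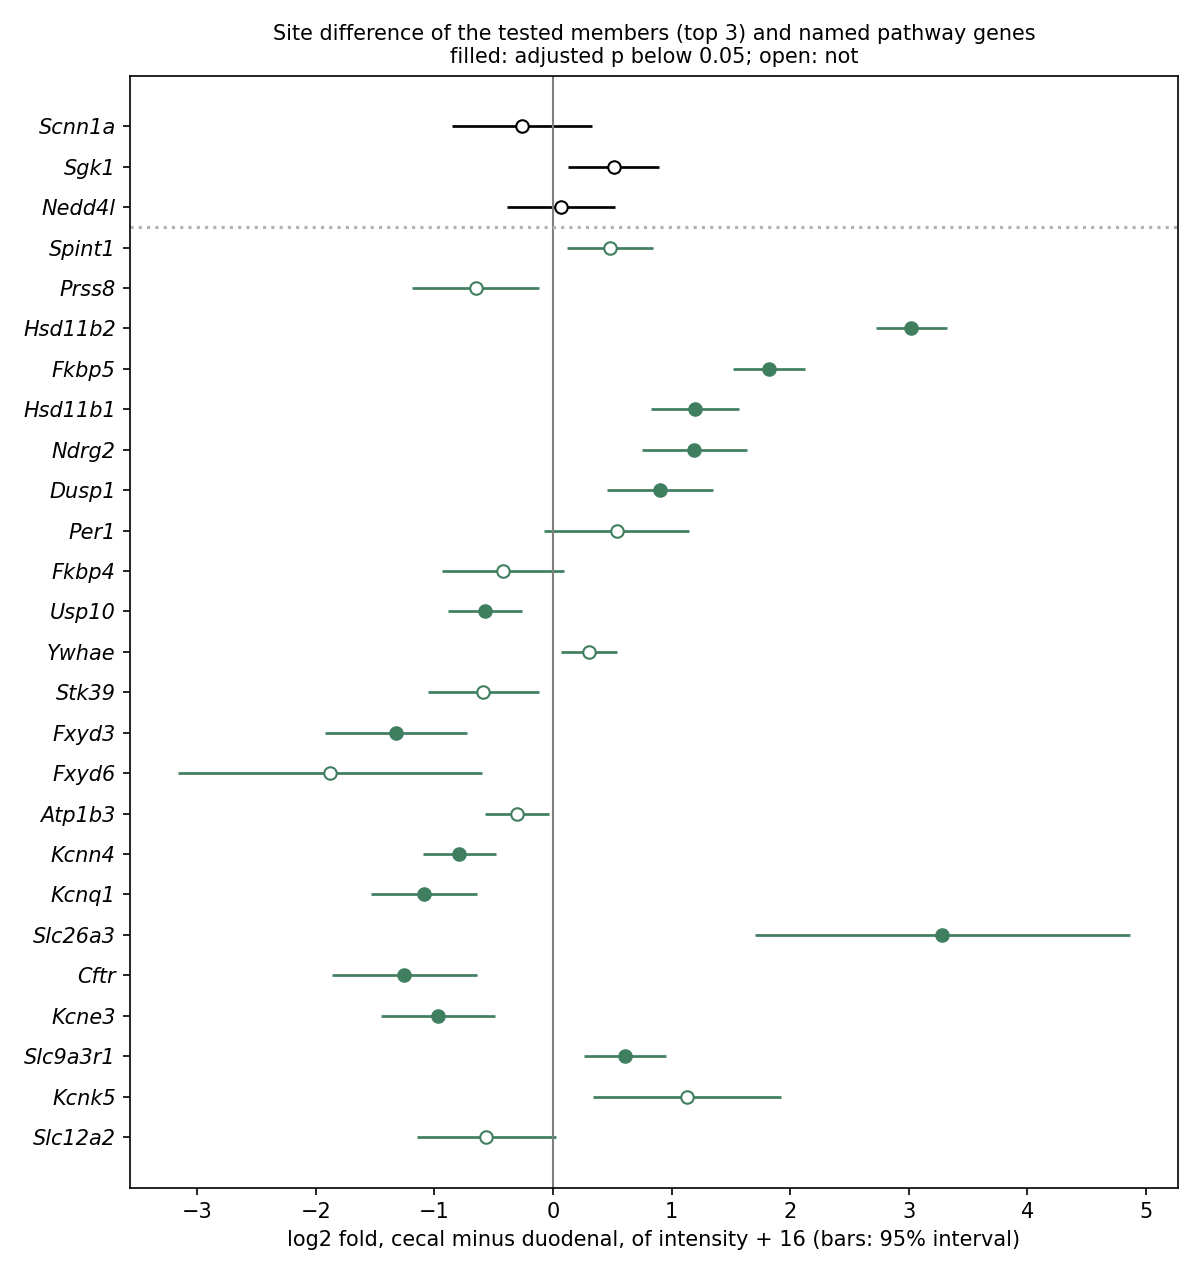
Log2 folds, cecal minus duodenal tumors on intensity + 16, with 95% intervals from limma for the 3 tested members (black, above the dotted line) and the named pathway genes (green); filled points have an adjusted p below 0.05. The intervals of Scnn1a and Nedd4l span 0, that of Sgk1 lies above 0 with an adjusted p of 0.0959, and Hsd11b2 stands at 3.02.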

How the data were processed

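RNA of 6 tumors was hybridised to 1 Affymetrix array each. The deposited values are linear probe set intensities, which the authors computed with MAS5, per the submitters' processing notes. The sources used here give no MAS5 version, target level or detection calls. Arrays had been scaled alike, with a mean of 499.1 to 499.9 between the 2nd and 98th percentiles, and nothing was added to that. Probe sets were named by the platform annotation (20380 of 22690 name 1 gene; 64 controls were left out) and the names checked against RefSeq GRCm38.p6 (0 symbols changed).

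A probe set was tested when above its array's 40th percentile on at least 3 of 6 arrays (13866 probe sets, 8129 genes). Log2(intensity + 16), which understates changes of dim genes, was fitted by lmFit and eBayes of limma 3.58.1 (R 4.3.3), with a trend on mean intensity, in two-sided tests adjusted by Benjamini-Hochberg. Each gene takes its brightest probe set over the 6 arrays, and gene p-values were adjusted over genes. Other probe sets carry p-values adjusted over all probe sets. The limma fit and its adjustment over probe sets were tested on simulated data. The filter, the choice of probe set and the adjustment over genes were not part of that test.

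Named were all members, every pathway gene that passed with up to 2 others per list by smallest p, and the 3 genes most correlated with each tested subunit. Members, lists and tests were chosen with earlier results of these data known. The duodenal and cecal tumor of 1 number deviated together from their group means (r = 0.274, 0.299 and 0.203 for numbers 1, 2 and 3). The labels name nothing that same-numbered mice share, so any pairing rests on the data alone. By Xist and Y-linked genes, the mice of each number were of the same sex, and the part of sex in these correlations was not tested. The reported fit has no block, and the fit with the numbers as a block is an alternative. The alternatives changed the offset, filter, normalization, variance model, array weights, probe set choice, replicate block, arrays left out and sex. Sex was read from Xist and Y-linked genes. Figures used Python 3.11.15, pandas 2.3.3 and matplotlib 3.10.9.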

Additional observations from a re-analysis of the deposited data

How the results depend on the processing

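The count of members past the threshold was 0 under the alternatives run, except 1 with no filter on dim probe sets (Scnn1g) and 1 with array weights (Sgk1, log2 fold 0.67). Leaving out each array in turn, the count of members stayed at 0, and the log2 folds ranged from -0.54 to 0.0077 for Scnn1a, from 0.39 to 0.64 for Sgk1 and from -0.077 to 0.27 for Nedd4l; the sign turned for Scnn1a without duodenal tumor 1 (0.0077) and for Nedd4l without duodenal tumor 2 (-0.045) or cecal tumor 1 (-0.077). With male mice alone Nedd4l was at -0.11. The count of pathway genes, 13, ranged from 6 to 15 with each array left out and was 6 with male mice alone; these settings have fewer samples. It was 16 with the replicate number as a block, in which Spint1, Fxyd6 and Kcnk5 passed as well; the block changed no call of a member (Sgk1 adjusted p = 0.1). The cause of each other change was not tested. The 3 dim members, Scnn1b, Scnn1g and Fxyd4, are limited by signal over background.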
